A study of Mus musculus with 24 samples.

Results

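The expression of 10 genes of the Wnt pathway was followed while 3T3-L1 cells turned into adipocytes with or without an inhibitor of sumoylation. The genes were *Wnt5a* and *Wnt10b* (ligands), *Fzd1* and *Lrp6* (receptor and co-receptor), *Sfrp1* and *Sfrp2* (secreted inhibitors), *Ctnnb1*, which encodes β-catenin, *Axin2*, and the nuclear factors *Tcf7l1* and *Tcf7l2*. They were taken by gene symbol from 26995 symbols with 91830 3′UTR entries, and where a symbol had several entries the gene was read from the entry that had the most total reads on average across the 24 libraries. 3T3-L1 is a single line of mouse embryonic fibroblasts that hormones turn into fat cells in culture. Cells were collected as pre-adipocytes at day -2, and at days 1, 3 and 7 of differentiation in dexamethasone, isobutylmethylxanthine and insulin, which were replaced at day 3 by a maintenance medium with insulin. Each day had cells in DMSO, the solvent control, and cells in 0.5 µM ML-792, an inhibitor of the E1 enzyme that starts the transfer of SUMO to proteins. How long the day -2 cells had been in ML-792 is not given in the sources used here. All 8 conditions, controls included, received 100 µM of 4-thiouridine for 45 min before collection, and each had 3 libraries named A, B and C. Every library gave 2 readouts: all 3′ end reads (QuantSeq, called total reads here) and the reads with at least 1 T to C conversion (SLAMseq, called labelled reads), which are enriched for RNA made during the pulse. A single conversion can also be a sequencing error, and no library without 4-thiouridine was analysed here.

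Wnt ligands are secreted lipid-modified proteins that bind Frizzled receptors together with the co-receptors LRP5 or LRP6. In the canonical branch this stops a complex of AXIN, APC and the kinases GSK3 and CK1 from marking β-catenin for destruction, so that β-catenin accumulates and activates genes with TCF/LEF factors, among them *Axin2*, a feedback inhibitor. WNT5A acts mainly through branches without β-catenin, and secreted Frizzled-related proteins (SFRP) bind ligands outside the cell. Canonical Wnt signals, WNT10B above all, are known to hold pre-adipocytes undifferentiated.

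All coordinates are those of the deposited tables, build mm10. The entry of *Wnt5a* was chr14:28522941-28527448 on the plus strand and that of *Wnt10b* chr15:98770712-98772475 on the minus strand. *Fzd1* lay at chr5:4753839-4755651 (minus), *Lrp6* at chr6:134446476-134450785 (minus), *Sfrp1* at chr8:23446489-23449632 (plus) and *Sfrp2* at chr3:83773423-83774314 (plus). The entries of the intracellular members were chr9:120959518-120960507 (plus) for *Ctnnb1*, chr11:108949396-108950783 (plus) for *Axin2*, chr6:72626371-72627359 (minus) for *Tcf7l1* and chr19:55931434-55933661 (plus) for *Tcf7l2*. Between 99.3% and 100% of the bases of each entry were annotated as untranslated sequence of the named gene. The *Ctnnb1* entry overlaps *Ulk4* and the *Sfrp2* entry overlaps *Gm26771*, both on the opposite strand. Whether strand was used in counting is not given in the sources used here, so reads of these overlapping genes cannot be told apart. The sequence CTTTGAT, a core to which TCF/LEF factors are known to bind, was searched on both strands of promoters of 300 bases (250 before and 50 after the start) in a RefSeq table of GRCm38.p6. It was found in 0 of the 9 promoters listed for 7 members (*Wnt10b*, *Ctnnb1*, *Axin2*, *Sfrp2*, *Tcf7l1*, *Tcf7l2* and *Fzd1*) and in 1225 of all 32851 promoters, or 3.73%. At so low a share, 0 of 9 does not set the members apart from other promoters, and the 2 *Ctnnb1* promoters overlap.

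The libraries held 13554718 to 27013352 total reads and 115709 to 820046 labelled reads. Counts are given at the mean library size after TMM normalization and are called normalized counts. The summed level of 8 adipocyte markers was 22707 to 24220 normalized counts in the DMSO libraries of day -2 and 630750 to 704810 at day 7, and that of 7 pre-adipocyte and fibroblast markers was 282890 to 344570 and then 25261 to 37891. Markers of other cell types were low but not all absent. Over the 24 libraries, 5 macrophage and immune markers summed to 26.2 to 146 normalized counts, most of them *Cd68*, while *Ptprc* had 0 reads. The sums were 0 to 20.5 for 4 endothelial markers, 0 to 73.7 for 4 skeletal muscle markers (nearly all *Actn3*), 1.16 to 26.3 for 3 osteoblast markers and 0 to 44.8 for 4 epithelial markers, of which *Epcam* had 0 reads. The epithelial sum was highest in DMSO at day 7, with 19.2 to 44.8 against 0 to 2.57 with ML-792. These are bulk samples, so fewer cells of a type and less RNA per cell cannot be told apart.

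At day -2, the members fell into 3 tiers by 3′ end reads, a scale with 1 read per RNA end that is not divided by length. *Ctnnb1* was highest with 10339 ± 398 normalized counts (SD, n = 3, as in all means below) and *Tcf7l1* followed with 5521 ± 1443. *Tcf7l2* (2215 ± 108), *Lrp6* (1767 ± 385), *Fzd1* (1324 ± 511), *Sfrp2* (1126 ± 216) and *Wnt5a* (811 ± 116) came next. In this order the ranges of *Tcf7l2* and *Lrp6*, of *Lrp6* and *Fzd1* and of *Fzd1* and *Sfrp2* overlapped, whereas *Sfrp2* and *Wnt5a* did not overlap. The lowest tier was at or near 0: *Wnt10b* had 3.57 ± 3.22, *Sfrp1* 2.93 ± 2.91 and *Axin2* 0.296 ± 0.513 normalized counts. By day 7 in DMSO, *Tcf7l1* (7136 ± 541) was above *Ctnnb1* (5261 ± 281) with no overlap, *Tcf7l2* (2098 ± 190) and *Lrp6* (1079 ± 190.2) followed, *Wnt5a* (201 ± 18.7) and *Fzd1* (152 ± 65.8) overlapped, and *Sfrp2* was at 4.12 ± 3.48.

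*Wnt10b*, *Sfrp1* and *Axin2* did not pass the filter on low counts and were not tested. *Axin2*, the feedback inhibitor widely used as a reporter of canonical signalling, had 1 read in the 24 libraries together, in DMSO at day -2. The gene has only 1 entry, and RNA that ends outside this entry would not be counted, so the count gives no measure of canonical signalling. *Wnt10b*, the ligand best known for blocking adipogenesis, had 59 reads in all and at most 17 in a library. In DMSO it had 12 reads over the 3 libraries of day -2, 1 read at day 1, 0 at day 3 and 1 at day 7, and in ML-792 it had 25, 19, 1 and 0. The 19 reads of day 1 were 2, 3 and 14 in libraries A, B and C. Summed, the ML-792 libraries of day 1 had 22.5 times the level of DMSO, with a counting interval from 3.58 to 936 that covers counting error only, and without replicate C the ratio was 6.09 with an interval from 0.681 to 288. *Sfrp1* had 97 reads in all and at most 10 in a library. Its DMSO libraries summed to 10, 17, 2 and 0 reads at days -2, 1, 3 and 7, and its ML-792 libraries to 11, 24, 21 and 12. At day 3 ML-792 was at 11 times DMSO (counting interval 2.68 to 96.4), and at day 7 it was at least 4.63-fold higher, taking 3 reads over the group as the floor. That bound rests on library B, since the 12 reads of day 7 were 0, 9 and 3, and without B the 3 reads left were no more than the floor.

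In the DMSO time course, 4 of the 7 tested members fell from day -2 to day 7: the ligand *Wnt5a*, the receptor *Fzd1*, the inhibitor *Sfrp2* and *Ctnnb1*. None rose by day 7, while *Lrp6* and *Tcf7l1* rose at day 1. Against day -2, edgeR's quasi-likelihood test at an adjusted p under 0.01 called 2 members higher and 1 lower at day 1, where 5.44% of all 26563 tested entries were called higher and 8.27% lower. At day 3 it called 4 members lower and 0 higher (17.1% of entries lower, 13.4% higher). The 4 members lower at day 7 stand against 17.1% of entries lower and 15.5% higher, and the median change of the 7 members was -0.97 on the log2 scale against -0.06 over all entries. From day 1 to day 3, 4 members fell, and 18.9% of entries changed in either direction. Between days 3 and 7 no member was called (8.77% of entries), although 1, *Lrp6*, was called with DESeq2, without the filter on low counts, in a fit of all 24 libraries or with the replicate letter as a block. The members have 1 entry each, and in a fit with 1 entry per gene 2402, 4960 and 5275 of 13331 genes differed from day -2 at days 1, 3 and 7.

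**Figure D1:**
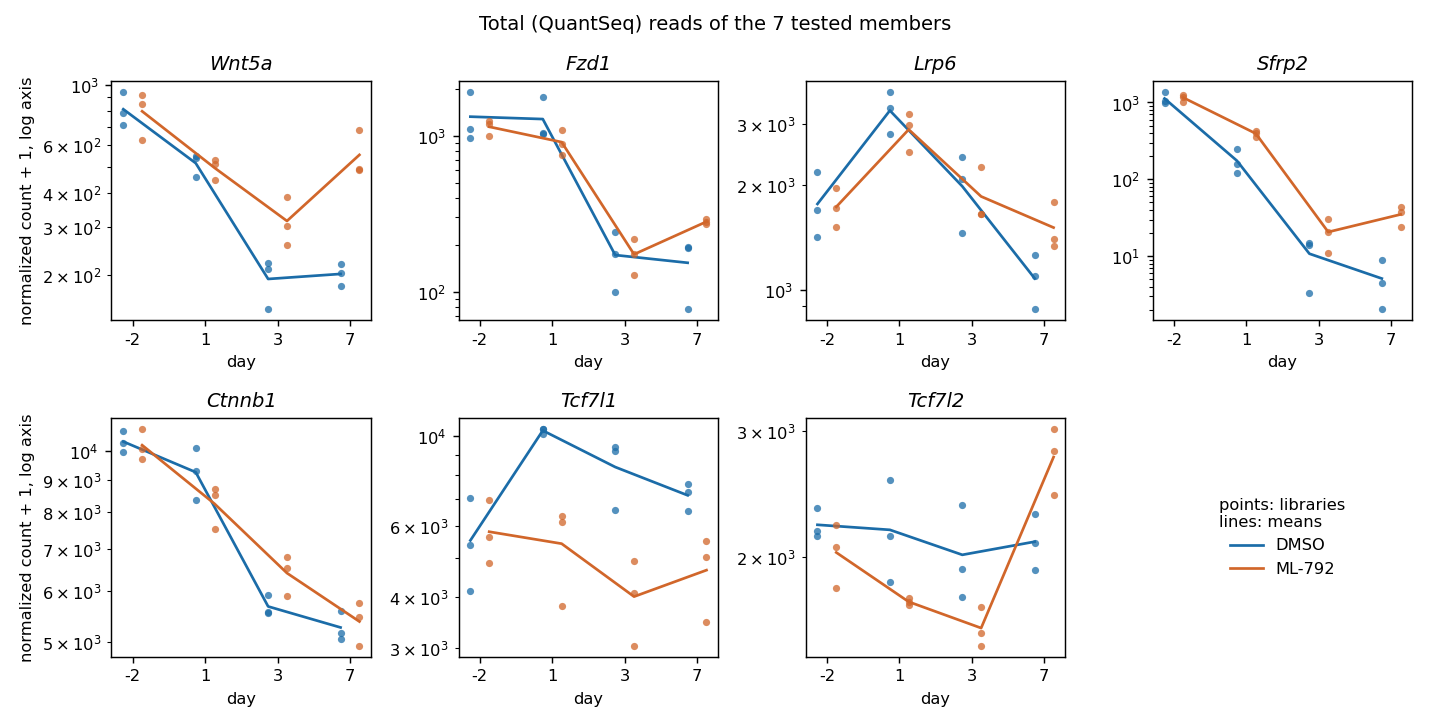
Total reads of the 7 tested members by day (days evenly spaced) in DMSO (blue) and ML-792 (orange), as normalized counts plus 1 on a log axis that differs between panels; points are libraries and lines join the means of 3 libraries. *Wnt5a*, *Fzd1*, *Sfrp2* and *Ctnnb1* were lower at days 3 and 7 than at day -2 in DMSO, and at day 7 the *Wnt5a* and *Sfrp2* libraries of ML-792 lay above those of DMSO.

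*Wnt5a* had 712, 939 and 782 normalized counts at day -2 in libraries A, B and C, 546, 537 and 459 at day 1, 149, 209 and 219.9 at day 3 and 219, 181 and 202 at day 7. Every library of days 3 and 7 was below every library of days -2 and 1, and days 3 and 7 overlapped. On the log2 scale the fall from day -2 measured -2.08 at day 3 (SE 0.20, adjusted p = 7.35e-07) and -2.01 at day 7 (SE 0.20, adjusted p = 7.99e-07). At day 1 it was -0.66 (adjusted p = 0.0218), and with the letter as a block, which pairs the libraries here, -0.65 (adjusted p = 0.00847). The step from day 1 to day 3 was -1.42 (adjusted p = 5.98e-05), and without replicate A it was -1.22 (adjusted p = 0.0149).

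*Fzd1* encodes a Frizzled receptor of the cell surface. Its libraries had 1099, 1909 and 964 normalized counts at day -2 and 1029, 1763 and 1043 at day 1. They had 98.5, 239.9 and 174 at day 3 and 192, 76.1 and 188 at day 7. Days -2 and 1 overlapped, and every library of days 3 and 7 was below them. The log2 change from day -2 was -0.05 at day 1 (adjusted p = 0.948), -2.96 at day 3 (SE 0.40, adjusted p = 2.08e-05) and -3.12 at day 7 (SE 0.40, adjusted p = 1.15e-05), and from day 1 to day 3 it was -2.91 (adjusted p = 4.44e-05).

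The co-receptor *Lrp6* moved otherwise. It had 1703, 2180.3 and 1418 normalized counts at day -2, 3329, 3710.1 and 2801 at day 1, 2081, 2417 and 1460.4 at day 3 and 1259, 880.3 and 1098 at day 7. The libraries of day 1 lay above all others, and those of day 7 below all of days -2 and 3. *Lrp6* rose by 0.89 on the log2 scale at day 1 (SE 0.22, adjusted p = 0.00798). This call was lost without replicate A (0.86, adjusted p = 0.157) or C (0.86, adjusted p = 0.0501). From day 1 to day 3 the change was -0.72 (adjusted p = 0.0214), or -0.74 (adjusted p = 0.00241) with the letter as a block. From day 3 to day 7 it was -0.88 (adjusted p = 0.0124), or -0.84 (adjusted p = 0.0017) with the block. Compared with day -2, the level of day 7 differed by -0.71 (adjusted p = 0.0157) and was not called. DESeq2 (-0.68, adjusted p = 0.00938), the fit without the filter on low counts (-0.71, adjusted p = 0.00567) and the fit of all 24 libraries (-0.71, adjusted p = 0.00565) called it.

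*Sfrp2*, a secreted inhibitor that binds Wnt ligands, had the widest range of all members. Its DMSO libraries had 969.5, 1373 and 1036 normalized counts at day -2, 155, 245 and 120.4 at day 1, 13.1, 2.32 and 13.9 at day 3 and 7.9, 1.04 and 3.43 at day 7. No library of days -2, 1 and 3 overlapped another of these days, and days 3 and 7 overlapped. On the log2 scale the fall from day -2 measured -2.70 at day 1 (SE 0.36, adjusted p = 6.14e-05), -6.82 at day 3 (SE 0.48, adjusted p = 2.15e-08) and -8.07 at day 7 (SE 0.53, adjusted p = 7.81e-09). Day 7 rested on 11 reads against 3887 at day -2, a ratio of 277 with a counting interval from 155 to 556. The step from day 1 to day 3 was -4.13 (adjusted p = 5.73e-06).

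*Ctnnb1* encodes β-catenin, whose activity is controlled mainly through protein stability, which RNA counts do not measure. It had 10755, 10301 and 9961 normalized counts at day -2 and 9287, 10104 and 8362 at day 1. It had 5926, 5566 and 5544 at day 3 and 5153, 5580.0 and 5051 at day 7, all below every earlier library. Its fall was -0.86 on the log2 scale at day 3 (SE 0.15, adjusted p = 2.02e-04) and -0.97 at day 7 (SE 0.15, adjusted p = 5.94e-05), and -0.70 from day 1 to day 3 (adjusted p = 0.00184). Without replicate A these calls were lost (-0.87, -0.93 and -0.73, with adjusted p = 0.0279, 0.0185 and 0.0852). Without replicate C they were lost at day 3 (-0.87, adjusted p = 0.0115) and from day 1 to day 3 (-0.75, adjusted p = 0.0362).

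*Tcf7l1* encodes a TCF factor known chiefly as a repressor of Wnt target genes. In DMSO it had 5391, 4148 and 7026 normalized counts at day -2, 10423, 10094 and 10428 at day 1, 9155, 6573 and 9414 at day 3 and 7591, 6537 and 7280.1 at day 7. The day 1 libraries lay above all others, and both later days overlapped day -2. It rose by 0.90 on the log2 scale at day 1 (SE 0.20, adjusted p = 0.00394), a call lost without replicate A (0.88, adjusted p = 0.126) or C (1.11, adjusted p = 0.0171). Day 3 was not called (0.60, adjusted p = 0.0239), but with the letter as a block it was (0.61, adjusted p = 0.00154), as it was with DESeq2 (0.64, adjusted p = 0.0085) and without replicate B (0.58, adjusted p = 0.00257). Replicate B had the lowest *Tcf7l1* level in 8 of 8 conditions, and the highest *Lrp6* level in 7 of 8.

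*Tcf7l2*, the TCF factor that mediates much of the canonical output in many tissues, had no called change in DMSO. Its libraries had 2138, 2338 and 2169 normalized counts at day -2, 2137, 2558 and 1843 at day 1, 1920.4, 2358 and 1754 at day 3 and 2292, 2088 and 1913 at day 7. All days overlapped, and no change from day -2 went beyond -0.14 on the log2 scale (day 3, 95% interval -0.50 to 0.23, adjusted p = 0.552).

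**Figure D2:**
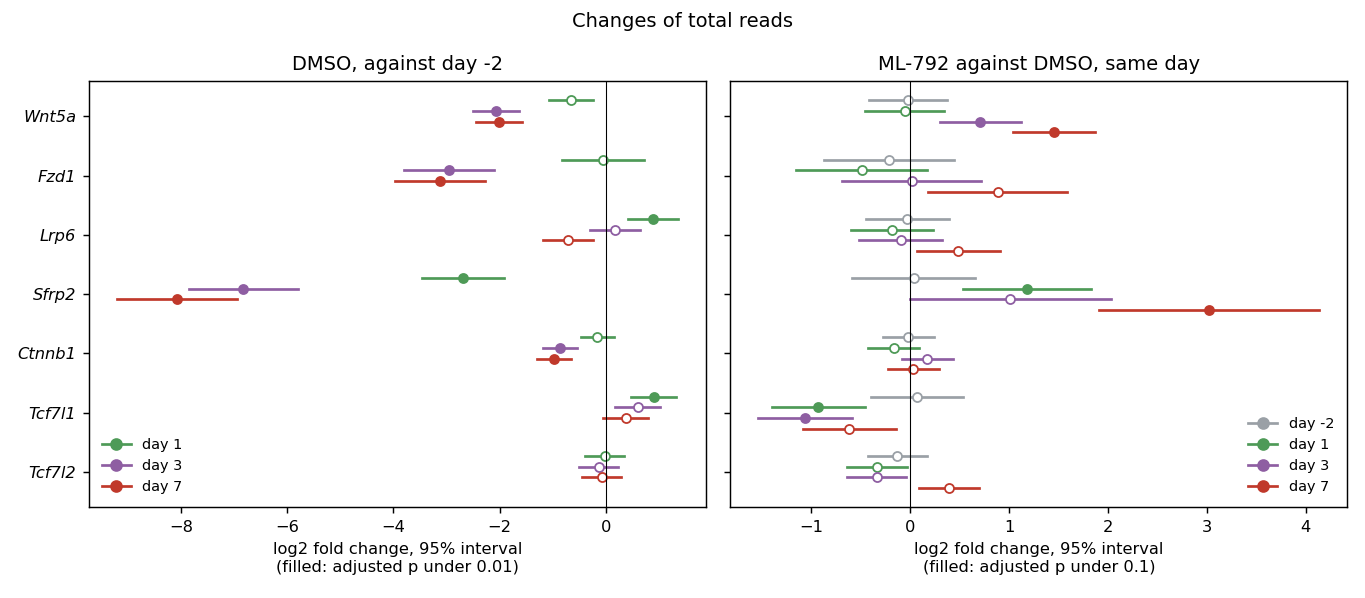
Log2 fold changes of total reads with 95% intervals, in DMSO against day -2 (left) and in ML-792 against DMSO of the same day (right); filled points passed edgeR's quasi-likelihood test at an adjusted p under 0.01 (left) or 0.1 (right). *Sfrp2* reached -8.07 at day 7 in DMSO and 3.02 with ML-792, and *Tcf7l1* was lower in ML-792 at days 1 and 3.

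ML-792 against DMSO of the same day asks what the inhibitor changed. Among the members that fell in DMSO, *Wnt5a* was higher with the inhibitor at days 3 and 7 and *Sfrp2* at days 1 and 7. *Tcf7l1* was lower with ML-792 at days 1 and 3, and *Ctnnb1* was not called at any day. At day -2 no member was called by edgeR at an adjusted p under 0.1, nor was any of the 26563 entries (0%). DESeq2 also called 0, and at an unadjusted p under 0.05 edgeR passed 348 entries (1.31%) and DESeq2 461. At day 1 the test called 1 member higher and 1 lower, against 3.05% of entries higher and 3.51% lower. At day 3 it was again 1 and 1, against 6.87% and 5.99%. At day 7, 2 members were higher and 0 lower, where 5% of entries were higher and 4.6% lower. With 1 entry per gene, *Tcf7l1* and *Tcf7l2* were called too, which made 4, and with DESeq2 *Fzd1* as well, which made 5. Without the filter on low counts the 5 called were *Wnt5a*, *Sfrp2*, *Tcf7l1*, *Fzd1* and *Sfrp1*. The effect of ML-792 differed between days for 4 members (F-test of the interaction of day and treatment, adjusted p under 0.1, 9.66% of entries). With 1 entry per gene, 1187, 2229 and 1782 of 13331 genes were called for ML-792 at days 1, 3 and 7, and 1784 for the interaction.

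Markers of cell state also moved with ML-792. At day 1, 1 of the 7 pre-adipocyte and fibroblast markers was called higher (*Thy1*) and 2 lower (*Col3a1* and *Pdgfrb*), 2 of 8 adipocyte markers were higher (*Fabp4* and *Plin1*), and the pre-adipocyte sum was 102810 to 162700 normalized counts against 172890 to 196320 in DMSO. At day 3, 3 pre-adipocyte markers were higher (*Pdgfra*, *Col1a1* and *Thy1*), 1 adipocyte marker was higher (*Lep*) and 2 lower (*Adipoq* and *Lpl*), and 1 of 4 proliferation markers was lower (*Top2a*). At day 7 the summed pre-adipocyte and fibroblast markers were at 44626 to 63702 normalized counts with ML-792 against 25261 to 37891 in DMSO, with 3 of the 7 markers called higher (*Pdgfra*, *Col3a1* and *Col1a1*) and 1 lower (*Dlk1*). The adipocyte markers summed to 834520 to 894330 against 630750 to 704810, with 3 of 8 called higher (*Adipoq*, *Fabp4* and *Lep*). The part of these shifts in the changes of *Wnt5a*, *Sfrp2*, *Tcf7l1* and the other genes called with ML-792 was not tested.

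With ML-792, *Wnt5a* had 918, 851 and 623 normalized counts at day -2, 444, 526 and 512 at day 1, 301, 386 and 257 at day 3 and 485, 678 and 490.3 at day 7. At days 3 and 7 every ML-792 library was above every DMSO library, and at days -2 and 1 the groups overlapped. The difference was 0.71 on the log2 scale at day 3 (SE 0.20, adjusted p = 0.0225) and 1.46 at day 7 (SE 0.20, adjusted p = 2.73e-05), or 2.74-fold. The call at day 3 was lost without replicate A (0.59, adjusted p = 0.336) and in a fit of the 6 libraries of that day (0.71, adjusted p = 0.148). At day 1 the difference was -0.06 (95% interval -0.45 to 0.34).

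*Sfrp2* had 1181, 1012 and 1268 normalized counts at day -2, 353, 430.4 and 397 at day 1, 29.3, 10.1 and 19.5 at day 3 and 22.6, 42.5 and 36.9 at day 7 with ML-792. At days 1 and 7 all ML-792 libraries exceeded all DMSO libraries, and at days -2 and 3 the groups overlapped. Against DMSO it was higher by 1.18 on the log2 scale at day 1 (SE 0.31, adjusted p = 0.0254) and by 3.02 at day 7 (SE 0.54, adjusted p = 6.69e-04), where 79 reads stood against 11. Day 3 was not called (1.01, adjusted p = 0.251). The day 1 call was lost without replicate A (1.18, adjusted p = 0.299) or C (0.97, adjusted p = 0.434). Even so, the ML-792 libraries of day 7 were far below all those of day -2, since 1153.9 ± 131 normalized counts had become 34.0 ± 10.2.

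*Tcf7l1* stood at 6929.7, 4849.6 and 5624 normalized counts at day -2 with ML-792, at 6344, 3793 and 6125 at day 1, at 4912, 3031 and 4092 at day 3 and at 5022, 3469 and 5499 at day 7. The rise that DMSO cells had at day 1 was not seen in these libraries, which overlapped those of day -2. At days 1, 3 and 7 all of them were below all DMSO libraries of the day. The difference was -0.93 on the log2 scale at day 1 (SE 0.23, adjusted p = 0.0144), -1.06 at day 3 (SE 0.23, adjusted p = 0.0027) and -0.61 at day 7 (adjusted p = 0.119, not called). Without replicate A the call at day 1 was lost (-1.05, adjusted p = 0.183), and without replicate C those at day 1 (-1.02, adjusted p = 0.151) and day 3 (-0.99, adjusted p = 0.108). Day 7 was called with DESeq2 (-0.60, adjusted p = 0.091), without the filter on low counts (-0.61, adjusted p = 0.0527) and without replicate B (-0.50, adjusted p = 0.025).

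*Tcf7l2* was lower than DMSO with ML-792 early and higher late. By edgeR over all entries, with the filter on low counts and no block, it was not called at any single day. Its libraries had 2210.4, 2059 and 1809 normalized counts at day -2, 1713, 1748 and 1726 at day 1, 1500.0, 1702 and 1564 at day 3 and 3018, 2807 and 2437 at day 7. They lay below all DMSO libraries at days 1 and 3 and above all of them at day 7. The log2 differences were -0.33 at day 1 (adjusted p = 0.26), -0.34 at day 3 (adjusted p = 0.173) and, turned upwards, 0.39 at day 7 (adjusted p = 0.119). With the letter as a block, which pairs the libraries of day 1, the first was called (-0.32, adjusted p = 0.0649). DESeq2 called day 7 (0.41, adjusted p = 0.0401).

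With the filter on low counts and no block, edgeR called neither *Fzd1* nor *Lrp6* for ML-792 at any day. At day 7 *Fzd1* had 292, 278 and 270.4 normalized counts with the inhibitor, above the 3 DMSO libraries, and the difference was 0.88 (95% interval 0.18 to 1.58, adjusted p = 0.136). DESeq2 (0.90, adjusted p = 0.0775) and edgeR without the filter (0.88, adjusted p = 0.00521) called it. *Lrp6* had 1403, 1794 and 1337, also above DMSO, with a difference of 0.49 (95% interval 0.07 to 0.91, adjusted p = 0.182). *Ctnnb1* with 5460.3, 4920.1 and 5749 overlapped DMSO at day 7 (0.03, 95% interval -0.23 to 0.29).

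The interaction test compares the effect of ML-792 at days 1, 3 and 7 with that at day -2. It was passed by *Wnt5a* (adjusted p = 0.00138, largest difference from day -2 1.48 on the log2 scale, at day 7), *Sfrp2* (adjusted p = 0.0176, 2.99), *Tcf7l2* (adjusted p = 0.0622, 0.52) and *Tcf7l1* (adjusted p = 0.0901, -1.13 at day 3). Without replicate A, *Sfrp2* (4.19, adjusted p = 0.116) and *Tcf7l1* (-1.07, adjusted p = 0.728) did not pass, and neither did they without replicate C (2.95, adjusted p = 0.37, and -1.32, adjusted p = 0.374). *Tcf7l2* did not pass without the filter on low counts (0.52, adjusted p = 0.384) or without any of the replicates (0.48 to 0.61, adjusted p = 0.116 to 0.693). *Fzd1* did not pass (1.10, adjusted p = 0.259), but without the filter it did (1.10, adjusted p = 0.00354).

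Labelled reads give a measure of the RNA made in the 45 min before collection. In DMSO all 6 members with enough labelled reads to be tested were lower at day 7 than at day -2, but labelled reads fell across the whole library too. They made up 3.17% ± 0.485 of the reads at day -2 and dropped to 1.27% ± 0.0798 at day 1, 1.03% ± 0.115 at day 3 and 1.03% ± 0.0869 at day 7, and each later day differed from day -2 at p = 0.1, the smallest p that a two-sided exact permutation test of 3 against 3 can give (0.14 after Benjamini-Hochberg adjustment over 7 comparisons). Labelled counts were scaled by total reads, so this shift is in every labelled change: the median over all 10589 tested entries was -1.27 on the log2 scale at day 1, -1.70 at day 3 and -1.54 at day 7. At day 1 edgeR called 1 member lower (19.1% of entries lower), at day 3 it called 5 lower (32.6%) and at day 7 all 6 (28.4%). From day 1 to day 3 only *Fzd1* was called (3% of entries), and from day 3 to day 7 none of the 6 (0.236%). Scaled instead by the labelled reads of each library, the share of lower entries among all called fell from 97.1% to 51.1% at day 1, from 94.6% to 43.2% at day 3 and from 94.3% to 46.2% at day 7. Such scaling brings the changes of a library near 0 by design (medians -0.01, -0.18 and -0.12), so these shares are not a separate result. On that scale the members called were *Tcf7l1* at day 1, higher by 1.27 (adjusted p = 0.00732), *Fzd1* at day 3 (-2.14, adjusted p = 0.0049) and *Wnt5a* at day 7 (-4.66, adjusted p = 0.00137).

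**Figure D3:**
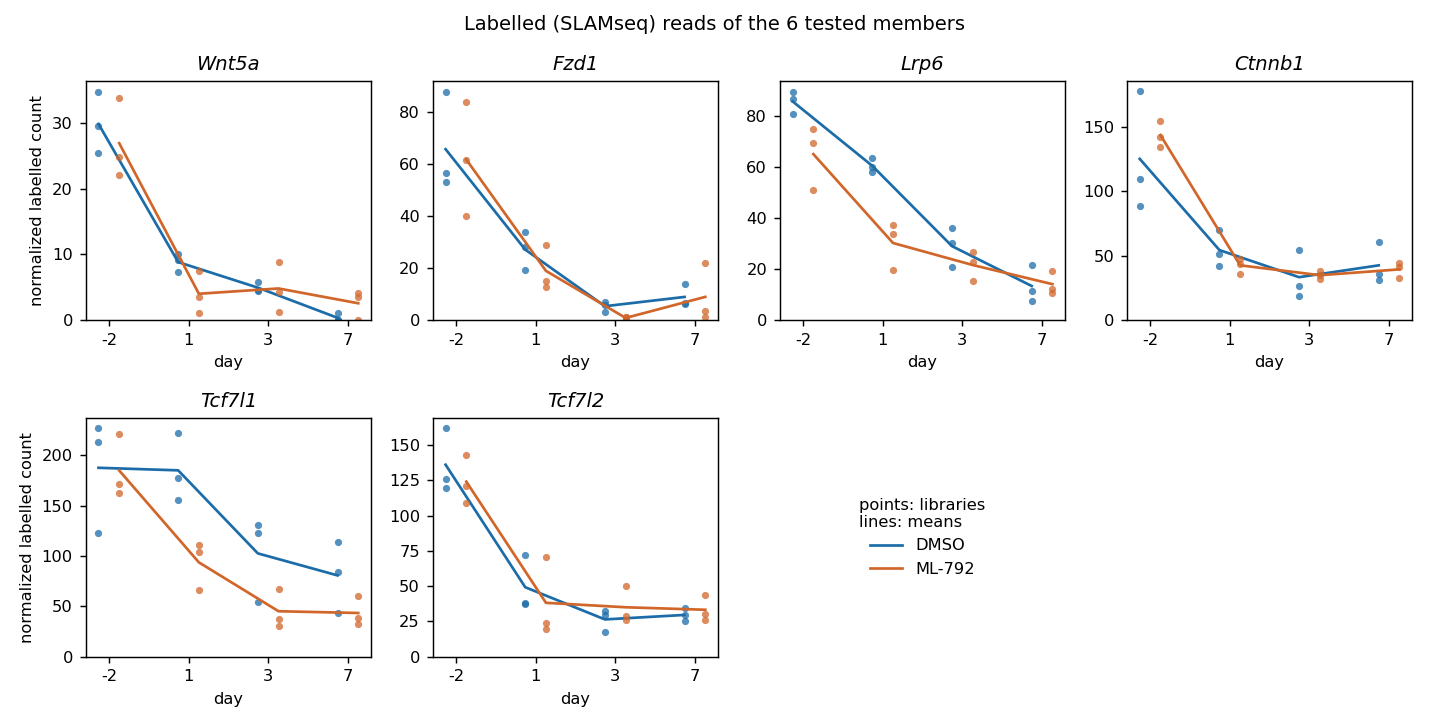
Labelled reads of the 6 tested members by day (days evenly spaced) in DMSO (blue) and ML-792 (orange), as normalized labelled counts scaled by total reads, on a linear axis that differs between panels; points are libraries and lines join the means of 3 libraries. All 6 were lower at day 7 than at day -2 in DMSO, and the *Tcf7l1* libraries of DMSO at day 1 (155 to 222) lay above those of ML-792 (66.3 to 111).

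*Wnt5a* had 31, 33 and 39 labelled reads at day -2 in DMSO, 11, 8 and 11 at day 1, 4, 4 and 5 at day 3 and 0, 1 and 0 at day 7. The libraries of each later day lay below all of day -2. The log2 change at day 3 was -2.57 (SE 0.73, adjusted p = 0.00346). At day 7 the single read leaves a ratio of 80.8 between day -2 and day 7, with a counting interval from 14.2 to 3220. The call at day 3 was lost without replicate A (-2.59, adjusted p = 0.0434), B (-2.54, adjusted p = 0.0104) or C (-2.57, adjusted p = 0.0375). Scaled by labelled reads, the change at day 3 was -1.08 (adjusted p = 0.363, not called).

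*Fzd1* had normalized labelled counts of 56.5, 87.6 and 53.3 at day -2, 19.3, 28.2 and 33.8 at day 1, 3.28, 5.8 and 6.94 at day 3 and 6.77, 6.26 and 13.7 at day 7. All libraries of day 1 were below those of day -2 and above those of days 3 and 7. The change at day 1 was -1.27 on the log2 scale (adjusted p = 0.038, not called), as was the median of all entries, beside -0.05 in total reads. It was -3.60 at day 3 (SE 0.58, adjusted p = 2.01e-06) and -2.87 at day 7 (adjusted p = 3.48e-05). From day 1 to day 3 it was -2.33 (adjusted p = 0.0076), a call lost without any 1 of the replicates (-2.26 to -2.37, adjusted p = 0.019 to 0.105).

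For *Lrp6* the labelled counts were 81, 86.7 and 89.7 at day -2, 57.9, 60.1 and 63.5 at day 1, 36.1, 20.9 and 30.1 at day 3 and 21.4, 7.3 and 11.4 at day 7. Day 1 lay below day -2 in labelled reads, as scaled by total reads, and above it in total reads. The labelled change was -0.50 at day 1 (adjusted p = 0.339), -1.56 at day 3 (adjusted p = 0.00311) and -2.68 at day 7 (SE 0.47, adjusted p = 8.99e-06). The day 3 call was lost without replicate A (-1.79, adjusted p = 0.0199), B (-1.36, adjusted p = 0.0101) or C (-1.55, adjusted p = 0.0393).

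*Ctnnb1* had normalized labelled counts of 178, 88.5 and 109 at day -2, 69.9, 51.0 and 42.1 at day 1, 54.7, 18.5 and 26.6 at day 3 and 36.1, 60.5 and 30.8 at day 7. The later days overlapped each other and lay below day -2. It changed by -1.20 at day 1 (adjusted p = 0.0231, not called), -1.90 at day 3 (SE 0.44, adjusted p = 4.31e-04) and -1.55 at day 7 (adjusted p = 0.00301). Without replicate C the call at day 3 was lost (-1.86, adjusted p = 0.0113), and that at day 7 was lost without A (-1.11, adjusted p = 0.139) or C (-1.46, adjusted p = 0.0391).

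*Tcf7l2* was the member called lower in labelled reads at day 1. It had normalized labelled counts of 162, 119.8 and 126 at day -2, 37.7, 38.3 and 71.8 at day 1, 29.5, 32.5 and 17.4 at day 3 and 29.3, 34.4 and 25.1 at day 7, while in total reads all its days overlapped. The libraries of day -2 lay above all others. Its log2 change was -1.46 at day 1 (SE 0.41, adjusted p = 0.00465), -2.36 at day 3 (SE 0.43, adjusted p = 1.64e-05) and -2.19 at day 7 (adjusted p = 4.67e-05). Without the filter on low counts (adjusted p = 0.0118), replicate A (-1.16, adjusted p = 0.161) or replicate C (-1.89, adjusted p = 0.0113) the call at day 1 was lost, and scaled by labelled reads the change was -0.22 (adjusted p = 0.804).

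*Tcf7l1* had 155, 222 and 177 normalized labelled counts at day 1 after 213, 123 and 227 at day -2. It had 123, 54.5 and 131 at day 3 and 114, 43.8 and 84.5 at day 7. Days -2 and 1 overlapped, and the change at day 1 was -0.02 (95% interval -0.77 to 0.73), or 1.27 when scaled by labelled reads. Day 7 was lower by -1.22 (SE 0.38, adjusted p = 0.00858). That call was lost with DESeq2 (-1.19, adjusted p = 0.0109), without the filter on low counts (-1.22, adjusted p = 0.0131) and without replicate A (-1.45, adjusted p = 0.0357) or C (-1.09, adjusted p = 0.0999), and the sign turned (0.22, adjusted p = 0.741) when scaled by labelled reads. *Sfrp2* had 28 labelled reads over the 3 libraries of day -2, 2 at day 1 and 0 at days 3 and 7, and was not tested.

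Labelled shares were taken where an entry had at least 100 total reads in a library, and they are a description with no test. The shares were not corrected for the T bases of an entry, which differ between genes. At day -2 in DMSO *Tcf7l2* had the highest mean labelled share of the members, 6.17% ± 1.26, which gave a log2 ratio to the share of its library of 0.95 ± 0.0791. Its libraries overlapped those of *Fzd1* (5.08% ± 0.470) and *Lrp6* (5.02% ± 1.19). *Sfrp2* (0.727% ± 0.066) and *Ctnnb1* (1.20% ± 0.406) had the lowest, and the log2 ratio to the library was -1.44 ± 0.258 for *Ctnnb1*. By day 7 this ratio was 0.46 ± 0.326 for *Tcf7l2* and -0.40 ± 0.556 for *Ctnnb1*. For *Tcf7l1* its mean lay between 0.04 and 0.48 at all days in DMSO.

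**Figure D4:**
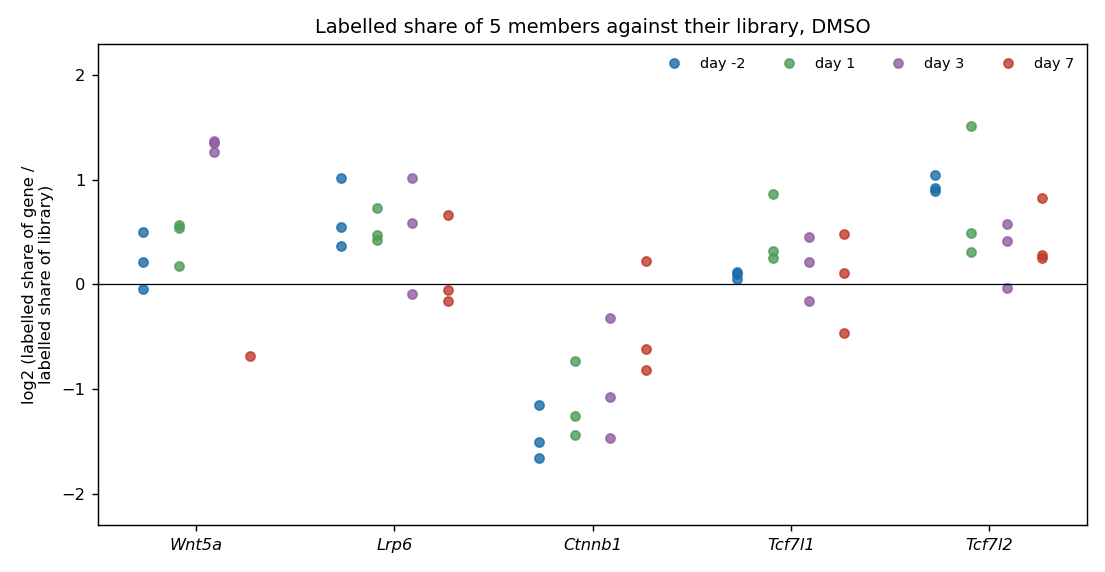
Log2 ratio of the labelled share of 5 members to the labelled share of their library, for each DMSO library with at least 100 total reads of the member and at least 1 labelled read; the line at 0 marks the share of the whole library. *Ctnnb1* libraries lay below the line at days -2, 1 and 3, those of *Tcf7l2* lay above it at day -2, and a single *Wnt5a* library had a labelled read at day 7.

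ML-792 moved no member in labelled reads past an adjusted p of 0.1, at day -2 (0% of entries called), day 1 (0.888%), day 3 (0.916%) or day 7 (0.869%), nor in the interaction (0.246%). *Tcf7l1* had 111, 66.3 and 103 normalized labelled counts with ML-792 at day 1, all below DMSO, and 67.4, 30.4 and 37.8 at day 3, where the groups overlapped. The log2 difference was -0.98 at day 1 (95% interval -1.71 to -0.25, adjusted p = 0.242) and -1.18 at day 3 (95% interval -1.93 to -0.42, adjusted p = 0.183). Without replicate B, day 3 was called (-1.26, adjusted p = 0.0774). *Wnt5a* at day 7 had 3, 0 and 3 labelled reads with ML-792 against 0, 1 and 0, a ratio of 6.95 with a counting interval from 0.843 to 320, so the higher total level at that day had no detectable counterpart at this depth. The median over all entries was lower with ML-792, by -0.18, -0.30, -0.08 and -0.37 on the log2 scale at days -2, 1, 3 and 7.

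For *Sfrp2* and *Fzd1*, whose levels ranged most widely over the 8 condition means, the genes with the most similar pattern were sought by Pearson correlation of the log2 means among 13331 genes. For *Sfrp2* (range 7.72 on the log2 scale) they were *Gdnf* (r = 0.994), *Plat* (0.993) and *Pianp* (0.992). For *Fzd1* (range 3.15) they were *Snai1* (0.996), *Kirrel* (0.995) and *Zfp319* (0.994). All these values come from the same 24 libraries, and with 8 points and so many genes they are a description only.

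Beyond the members, 110 further genes of the pathway were listed by role. Of these, 108 were in the tables and 74 were tested in total reads. From day -2 to day 7 in DMSO, 9 of the 74 rose and 32 fell, or 55.4% called, with a median log2 change of -0.67 against -0.06 over all entries, of which 15.5% rose and 17.1% fell. At day 1, 9 rose and 12 fell, or 28.4% called, against 5.44% and 8.27% of all entries. At day 3, 9 rose and 28 fell, or 50% called, against 13.4% and 17.1%. The list genes have 1 entry each, whereas all entries include several of the same gene. In a fit with 1 entry per gene, 2402, 4960 and 5275 of 13331 genes were called at days 1, 3 and 7. Without replicate A the list genes called were 7 at day 1, 22 at day 3 and 25 at day 7, and without replicate C 8 at day 1. Of all 26563 entries, 855, 4018 and 4552 were called without A, and 1445 at day 1 without C.

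Most other ligands were hardly detected: 13 of 17 were not tested and had 0 to 43 reads each over the 24 libraries. Of the 4 tested, *Wnt4*, *Wnt6* and *Wnt9a* were lower at day 7 than at day -2 (17.1% of all entries were lower) and *Wnt5b* was not called. *Wnt4* peaked at day 1, with 582, 402 and 482 normalized counts after 55.6, 51.9 and 55.1 at day -2, a rise of 3.17 on the log2 scale (adjusted p = 3.59e-06), and was at 20.3 to 25.1 by day 7. Among genes of ligand processing, *Porcn*, the acyltransferase that adds the lipid to Wnt proteins, rose by day 7 (1.46, adjusted p = 6.6e-05), and the carrier *Wls* (-1.80, adjusted p = 5.14e-07) and the glypicans *Gpc4* (-2.18) and *Gpc6* (-2.86) fell.

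Of 12 other receptors and co-receptors tested, 6 fell by day 7 and 0 rose, where 17.1% of all entries fell and 15.5% rose. *Fzd2* went from 5662, 3963 and 6625 normalized counts at day -2 to 1075, 525 and 1099 (-2.59, adjusted p = 9.91e-06) and *Ryk* fell by 1.02 on the log2 scale. *Rspo2* and *Lgr4*, an agonist and its receptor that strengthen Wnt signals, were the 2 of 3 called in their group, both lower (-3.80 and -1.49). Among 6 inhibitors, *Sfrp5* rose from 2 reads over the 3 libraries of day -2 to 410 at day 7, a ratio of 261 with a counting interval from 71.9 to 2160, *Igfbp4* rose by 0.88, and *Dkk3* fell from 803 reads to 1, a ratio of 630 (interval 113 to 24900).

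Of 18 tested genes of Dishevelled and the destruction complex, 4 were lower at day 7 (*Dvl2*, *Csnk1g1*, *Dvl3* and *Apc*) and 2 higher (*Gsk3a* and *Dvl1*). Over all 26563 entries 17.1% were lower and 15.5% higher, and with 1 entry per gene 5275 of 13331 genes were called. The genes of this group with the highest level, *Csnk1a1* and *Gsk3b*, were not called. Of 16 nuclear factors, 4 rose (*Hipk2*, *Lef1*, *Tbl1xr1* and *Tle1*) and 4 fell (*Tle2*, *Tle4*, *Ctbp2* and *Pygo2*). *Lef1*, a TCF family member, rose from 66.3, 90.3 and 129.7 normalized counts at day -2 to 1951, 1910.2 and 2292 at day 3 and was at 955, 833 and 865 at day 7 (3.21, adjusted p = 1.67e-08). *Hipk2*, a kinase that phosphorylates TCF factors, rose by 3.61. Of the targets and feedback genes, *Nkd1*, *Sp5* and *Nkd2* had 5, 2 and 78 reads over the 24 libraries and were not tested. Of the 11 tested, 9 fell and 0 rose, among them the cell cycle gene *Ccnd1* (-2.95), *Jun* (-2.03), *Edn1* (-4.74) and *Bmp4*, which had 82 reads at day -2 and 1 at day 7 (ratio 64.4, interval 11.2 to 2570). These genes answer to many signals other than Wnt, and the proliferation markers also moved, whose summed mean of 3072 normalized counts at day -2 became 14750 at day 1, then 4282 at day 3 and 927 at day 7. Their part in these changes was not tested.

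**Figure D5:**
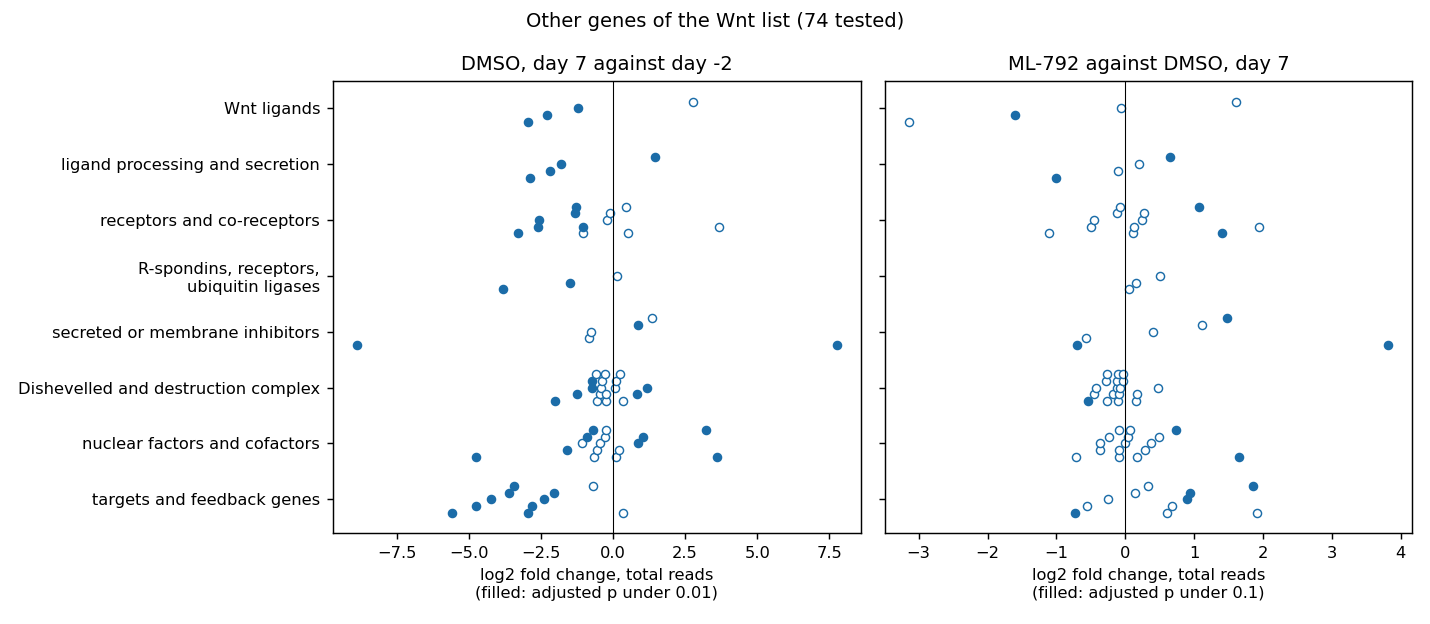
Log2 fold changes of total reads of the 74 other tested genes by role, from day -2 to day 7 in DMSO (left) and between ML-792 and DMSO at day 7 (right); each point is a gene, points are spread vertically for sight, filled points passed the adjusted p named under the axis, and the values of *Sfrp5*, *Dkk3* and *Bmp4* rest on 1 or 2 reads in a group. On the left 9 filled points are above 0 and 32 below, and all 9 filled points of the targets are below 0.

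With ML-792, none of the 74 was called at day -2. At day 1, 6 were higher and 3 lower, or 12.2% called, against 3.05% and 3.51% of all entries. At day 3 they were 9 and 11, or 27%, against 6.87% and 5.99%, and at day 7 they were 10 and 5, or 20.3%, against 5% and 4.6%. In a fit with 1 entry per gene, 1187, 2229 and 1782 of 13331 genes were called at days 1, 3 and 7. With the letter as a block, which pairs the libraries of day 1, the count of list genes at that day was 22. Leaving out replicate A gave 5, 8 and 9 at days 1, 3 and 7, and leaving out replicate C gave 5, 10 and 3. Of all 26563 entries, 3594 were called at day 1 with the block. Without A, 450, 1297 and 766 entries were called at days 1, 3 and 7, and without C 699, 1601 and 789. The effect of ML-792 differed between days for 15 of the 74, beside 9.66% of all entries.

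*Lef1* was among them. At day 3 it had 465, 369 and 353 normalized counts with ML-792, below 1951, 1910.2 and 2292 in DMSO (-2.37, SE 0.19, adjusted p = 4.22e-09), and at day 7 it had 934, 1058 and 992, overlapping DMSO. *Porcn* went the other way. It had 1733, 1214 and 2126 with ML-792 at day 1 against 346, 251 and 357 (2.41, adjusted p = 2.65e-06), was higher by 3.06 at day 3 (adjusted p = 5.43e-08) and was lower by -1.01 at day 7 (adjusted p = 0.0186). *Ccnd1*, with 6768, 6474 and 6037 at day 3 against 1863, 1911 and 1980.0, was higher at days 1 (0.91), 3 (1.74) and 7 (1.86, adjusted p = 1.84e-09).

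At day 7 the other genes higher with ML-792 included *Tle2*, a Groucho corepressor (1.65, adjusted p = 0.0148), and *Dkk3*, with 16 reads against 1 (ratio 18.5, interval 2.88 to 777). Lower were *Wnt4* (-1.60, adjusted p = 0.0314), *Porcn*, *Fosl1* (-0.72, adjusted p = 0.0209), *Igfbp4* (-0.70, adjusted p = 0.094) and *Axin1* (-0.54, adjusted p = 0.0317). In labelled reads 52 of the 108 were tested. In DMSO 13 fell and 1 rose at day 1, 25 fell and 2 rose at day 3 and 25 fell at day 7, where 19.1%, 32.6% and 28.4% of all entries fell. Without replicate A the called genes were 4, 15 and 14, and without replicate C 6 at day 1. Scaled by labelled reads they were 4, 9 and 13. Of all 10589 entries, 2082, 3644 and 3193 were called in either direction. Without A these numbers were 458, 1482 and 1211, and without C 941 at day 1. Scaled by labelled reads, 538, 1174 and 1091 entries were called. With ML-792, *Wisp1* was called lower at day 1 (-3.41, adjusted p = 0.0082) and *Csnk1g3* higher at day 3 (adjusted p = 0.0805).

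A further description, chosen after the data were seen, concerns the long 3′UTRs of *Wnt5a* and *Lrp6*, for which a shorter entry ends inside the longer one. The shorter entry held 40.7% to 55.3% of the reads of the *Wnt5a* entry and 43.4% to 54.5% of those of *Lrp6* as means of the 8 conditions. For *Wnt5a* at day 7 the share was 32.8% to 47.5% in the DMSO libraries and 45.4% to 60.4% with ML-792, which overlap.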

How the data were processed

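RNA of 24 samples of 3T3-L1 cells (8 conditions, 3 libraries each) was sequenced from its 3′ ends with 50-base reads (QuantSeq 3′ FWD). The authors aligned reads with SlamDunk to mm10 3′UTR entries of RefSeq and deposited raw counts per entry, of all reads and of reads with at least 1 T to C conversion. The submitters' processing notes name bcl2fastq 2.17.1.14. Libraries held 13554718 to 27013352 total and 115709 to 820046 labelled reads, and 6 library columns that match no sample used here were left out. No 2 libraries were identical (0 identical libraries). Groups came from the sample labels. The methods call the libraries of a condition biological replicates but do not say whether they were separate cultures or differentiations, and p-values measure only the spread between these samples.

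Counts were tested with edgeR 4.0.16 in R 4.3.3 (robust quasi-likelihood test, TMM, filterByExpr with a minimum count of 10 and total of 15). The time course was fitted on 12 DMSO libraries and ML-792 on 24 libraries, with Benjamini-Hochberg adjustment over all entries. Calls were made at an adjusted p under 0.01 for the time course and 0.1 for ML-792. For correlations, 2 was added to normalized counts before taking the log2. Labelled counts were scaled by the total-read library sizes, as in the study. A normalized count is the count divided by the effective library size, times the mean effective library size. The SE of an edgeR change is the size of the log2 change divided by the square root of the F statistic. Its 95% interval is symmetric and takes the t distribution with this SE. Ratios that rest on few reads have exact binomial 95% intervals, which cover counting error only. Alternatives were DESeq2 1.42.0 (the tool the study used), no filter, a single entry for each gene, a block for the letter of the replicate, other samples in the fit, labelled reads scaled by labelled reads, and each replicate left out.

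The members and lists were chosen with earlier results of these data known. Besides the members, genes were named by rule: the 2 most abundant of each list, the 4 called highest and 4 called lowest at day 7 in DMSO, the 3 and 3 with ML-792 at day 7, and 3 genes most like each of the 3 members of widest range. The result for *Sfrp1*, 1 of these 3, is not reported here. Other genes were named after their values were seen, where a group had few calls. Whether a letter marks 1 culture or batch is not stated. In total reads, deviations of same-letter libraries correlated above 0.1 for every letter in 6 of 9 comparisons (r from -0.0161 to 0.44 over all 9), which were all but day 7 against day -2 in DMSO and ML-792 at days 3 and 7, and there the letters were taken to pair the libraries. In labelled reads this held in 0 of 9 (0.0141 to 0.188).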

Additional observations from a re-analysis of the deposited data

Results flagged for a closer look

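The effect of ML-792 on total reads differed between days for 4 of the 7 tested members, by edgeR's F-test of the interaction of day and treatment. At the same adjusted p under 0.1, 9.66% of all 26563 entries passed, and with 1 entry per gene 1784 of 13331 genes did. The largest difference from the effect at day -2 was 2.987 on the log2 scale for *Sfrp2* (adjusted p = 0.0176), 1.482 for *Wnt5a* (adjusted p = 0.00138), 0.5214 for *Tcf7l2* (adjusted p = 0.0622) and -1.134 for *Tcf7l1* (adjusted p = 0.0901). At day 7, where the first 3 of these values lie, all 3 ML-792 libraries were above all 3 DMSO libraries for *Sfrp2*, *Wnt5a* and *Tcf7l2*. For *Tcf7l1* the value comes from day 3, where all 3 ML-792 libraries were below those of DMSO. *Sfrp2* and *Tcf7l1* did not pass without replicate A or without C. *Tcf7l2* did not pass with any 1 replicate left out, nor without the filter on low counts. Only 1 member passed without A, and only 1 without C.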

How the results depend on the processing

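Of 1085 alternative values for the members, 988 kept their side of the threshold, 56 lost a call and 39 gained one. A call was involved in 2 changes of sign, *Tcf7l1* in labelled reads at day 1 (1.273) and day 7 (0.2153) when scaled by labelled reads. Among the 988 a further 52 values, called in neither setting, turned sign, such as *Lrp6* (0.73) and *Ctnnb1* (0.11) in labelled reads at day 1 on the same scale. Calls of members in total reads between days 3 and 7 went from 0 to 1 with DESeq2, no filter, the replicate block or all 24 libraries. For ML-792 they went from 2 to 1 at day 3 with the 6 libraries of that day, and at day 7 from 2 to 5 with DESeq2, no filter or the replicate block and to 4 with 1 entry per gene. In labelled reads they went from 1 to 0 (no filter) or 2 (replicate block, all 24 libraries) at day 1, from 5 and 6 to 1 at days 3 and 7 when scaled by labelled reads, from 1 to 0 from day 1 to day 3 (no filter, scaled by labelled reads), and from 0 to 1 with ML-792 at days 1 and 3 (replicate block, *Tcf7l1*, -1.079 and -1.156). The other pathway genes called with ML-792 went from 9 to 14 (DESeq2) or 22 (replicate block) at day 1 and from 20 to 13 (6 libraries) at day 3, and those called in labelled reads from 14, 27 and 25 to 4, 9 and 13 when scaled by labelled reads. On that scale the calls over all 10589 entries went from 2082, 3644 and 3193 to 538, 1174 and 1091.

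With 1 replicate left out, members called in total reads numbered 1 to 3 at day 1, 2 to 5 from day 1 to day 3, 0 to 2 and 1 to 2 with ML-792 at days 1 and 3, and 1 to 3 in the interaction. In labelled reads they numbered 0 to 2 at day 1, 2 to 3 at day 3, 0 to 0 from day 1 to day 3 and 0 to 1 with ML-792 at day 3. Other pathway genes numbered 7 to 25, 22 to 40 and 25 to 42 at days 1, 3 and 7 in DMSO, 5 to 13, 8 to 23 and 3 to 15 with ML-792, and in labelled reads 4 to 17, 15 to 27 and 14 to 26. The lowest counts came without replicate A, in places also without C, except for ML-792 at day 7 (without C, 3) and members in labelled reads at day 3 (without C, 2). Over all entries, ML-792 changed 1741 at day 1 (3594 with the replicate block, 450 without A) and 2550 at day 7 (4841 and 766), and days 3 and 7 differed in 2330 (3969 and 426). Calls were lost without A or C over all entries too, and gained without B. In DMSO at day 1 there were 3642, with 855 without A, 4828 without B and 1445 without C. With ML-792 at day 3 there were 3415, with 1297, 4340 and 1601.

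The replicate block gained 14 of 130 member calls and lost none, and those not given above were *Lrp6* at day 7 in DMSO (-0.6813) and with ML-792 (0.4583) and in the interaction (0.4748), *Tcf7l2* with ML-792 at days 3 (-0.3325) and 7 (0.3911), *Tcf7l1* with ML-792 at day 7 (-0.6402) and *Ctnnb1* in labelled reads at day 1 (-1.188). Low counts limit *Wnt10b*, *Sfrp1* and *Axin2* in total reads and *Wnt5a* and *Sfrp2* in labelled reads, where a few reads leave wide intervals. The causes of these changes were not tested.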
